A study of Homo sapiens with 135 samples.

Results

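The loci examined here are 8 windows of the human genome, each around a gene known for its activity in pluripotent cells, and the members are the ChIP-seq peak regions that lie in them. The genes are POU5F1, NANOG and SOX2, the core transcription factors of the pluripotent state, PRDM14 and ZFP42, 2 further DNA-binding factors, DNMT3B, a DNA methyltransferase, DPPA4, a chromatin-associated protein, and LIN28B, an RNA-binding protein. All regions of 36 peak lists inside these windows were taken, whatever their strength. This gave 531 of the 833373 regions of the lists, and 270 of 350373 regions once those that overlapped between lists were merged. All 531 lay fully inside a window. The windows are given on build hg19 and span 200 to 330 kb, together 1.85 Mb: POU5F1 at 31.03 to 31.24 Mb of chromosome 6, NANOG at 7.84 to 8.05 Mb of chromosome 12, SOX2 at 181.33 to 181.53 Mb of chromosome 3, DNMT3B at 31.25 to 31.50 Mb of chromosome 20, PRDM14 at 70.86 to 71.08 Mb of chromosome 8, DPPA4 at 108.94 to 109.16 Mb of chromosome 3, LIN28B at 105.30 to 105.63 Mb of chromosome 6 and ZFP42 at 188.82 to 189.03 Mb of chromosome 4.

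ChIP-seq (chromatin immunoprecipitation sequencing) finds the stretches of DNA that a protein occupies. H9 cells, a line derived from a human embryo and kept as stem cells, were driven towards neural progenitors in an induction medium and taken on days 0, 4 and 9 for ChIP-seq of CTCF, of MBD3 and of the TET proteins TET1, TET2 and TET3. The antibodies to TET2 and TET3 are not described in the sources used here. Cells were labelled WT, DMSO or BPK25 on each day, and BPK25, a compound known to promote loss of NuRD subunits, was used at 20 µM. How the BPK25 group of day 0 was exposed is not given in the sources used here. WT lists exist for CTCF and MBD3 only, so the 36 lists comprise 6 WT, 15 DMSO and 15 BPK25 lists. Each list was called on 3 pooled replicates, and whether these came from separate cultures is not stated, so a list is 1 value without replicate error, and the antibodies of a day and treatment may have had an input in common. The lists state no depth. They held between 321 and 84203 regions, and counts in the windows are therefore also given per 10000 regions of the list. Each peak carries the authors' −log10 q, where a higher value means a smaller q-value of the peak against its background, and a fold enrichment over local background. Both describe a peak within its list. The highest −log10 q over all lists served to name regions, but values of different lists given side by side do not compare enrichment between treatments or days.

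A pluripotent cell is held in its state by a circuit in which POU5F1, SOX2 and NANOG bind each other's control regions together, and their levels, apart from that of SOX2, fall as cells become neural. CTCF is a zinc finger protein at the anchors of chromatin loops. MBD3 is a subunit of NuRD, a complex that moves nucleosomes and removes acetyl groups from histones, and it is known as a brake on pluripotency genes during lineage commitment. The TET enzymes oxidise 5-methylcytosine at CpG dinucleotides, the first step of active demethylation, whereas DNMT3B places the methyl group there.

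The TET enzymes act at CpG dinucleotides, so the CpG content of some starts was compared. For this, the sequence just upstream of the start site of the SOX2, NANOG and DNMT3B genes and of the CpG-rich LIN28B start is shown. Each is the 250 bases before the start, 5′ to 3′ on the gene's own plus strand, from RefSeq on build GRCh38.p14, with every CpG in capitals. The peak lists are on another build, so these stretches were not placed among the peaks.
SOX2: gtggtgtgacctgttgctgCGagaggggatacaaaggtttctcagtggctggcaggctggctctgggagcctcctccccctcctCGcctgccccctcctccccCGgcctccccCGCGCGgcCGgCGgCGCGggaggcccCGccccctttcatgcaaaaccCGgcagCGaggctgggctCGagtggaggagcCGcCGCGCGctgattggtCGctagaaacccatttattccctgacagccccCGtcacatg
LIN28B: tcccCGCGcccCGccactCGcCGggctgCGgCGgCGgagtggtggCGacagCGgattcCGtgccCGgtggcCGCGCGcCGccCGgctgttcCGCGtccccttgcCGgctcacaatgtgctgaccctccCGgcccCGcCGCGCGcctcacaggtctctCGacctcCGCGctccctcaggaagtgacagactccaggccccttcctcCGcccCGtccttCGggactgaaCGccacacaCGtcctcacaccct
NANOG: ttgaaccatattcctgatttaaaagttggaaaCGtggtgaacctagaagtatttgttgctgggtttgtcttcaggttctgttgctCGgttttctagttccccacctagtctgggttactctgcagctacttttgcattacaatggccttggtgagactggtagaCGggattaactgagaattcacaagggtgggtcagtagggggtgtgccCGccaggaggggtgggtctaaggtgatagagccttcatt
DNMT3B: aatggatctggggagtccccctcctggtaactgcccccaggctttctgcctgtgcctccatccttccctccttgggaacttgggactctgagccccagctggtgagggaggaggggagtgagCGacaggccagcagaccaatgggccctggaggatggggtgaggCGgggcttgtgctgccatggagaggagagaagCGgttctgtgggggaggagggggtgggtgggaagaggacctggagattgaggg

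The SOX2 stretch holds 20 CpGs and the LIN28B stretch 33, against 4 for NANOG and 3 for DNMT3B. Of 35116 such RefSeq stretches of the same length, 32.4% hold at least as many CpGs as that of SOX2, 8.15% as that of LIN28B, 70.7% as that of NANOG and 77.1% as that of DNMT3B, and the median is 11. ZFP42, with 23 CpGs (25.8% of stretches hold as many), falls with SOX2. DPPA4, with 3, falls with NANOG and DNMT3B, and a second LIN28B start has 6. The table held entries for 6 of the 8 genes, POU5F1 and PRDM14 being the others. CpG-rich and CpG-poor starts are thus both present among the loci. Whether the CpG content of a start goes with the number of peak regions in its window was not tested.

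The number of regions differed widely between windows. The DNMT3B window held 191 list regions, or 76.4 per 100 kb, and 28 of the 36 lists had at least 1 region there. PRDM14 followed with 82 list regions (37.3 per 100 kb, 25 lists), SOX2 with 68 (34.0 per 100 kb, 25 lists) and LIN28B with 78 in a wider window (23.6 per 100 kb, 23 lists). NANOG had 39 (18.6 per 100 kb, 14 lists), ZFP42 34 (16.2 per 100 kb, 21 lists) and DPPA4 31 (14.1 per 100 kb, 12 lists). POU5F1 had 8 list regions, 3.81 per 100 kb, from 5 lists. Merged regions had a density of 14.6 per 100 kb over the 8 windows, against 11.3 over the chromosomes as a whole, and ranged from 1.43 per 100 kb at POU5F1 to 32.4 at DNMT3B. Each window also holds or borders other genes. In the RefSeq gene order these are, for example, COMMD7 and MAPRE1 beside DNMT3B, HLA-C after POU5F1 and HACE1 before LIN28B. A region in a window is thus not thereby a region of the gene.

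**Figure D1:**
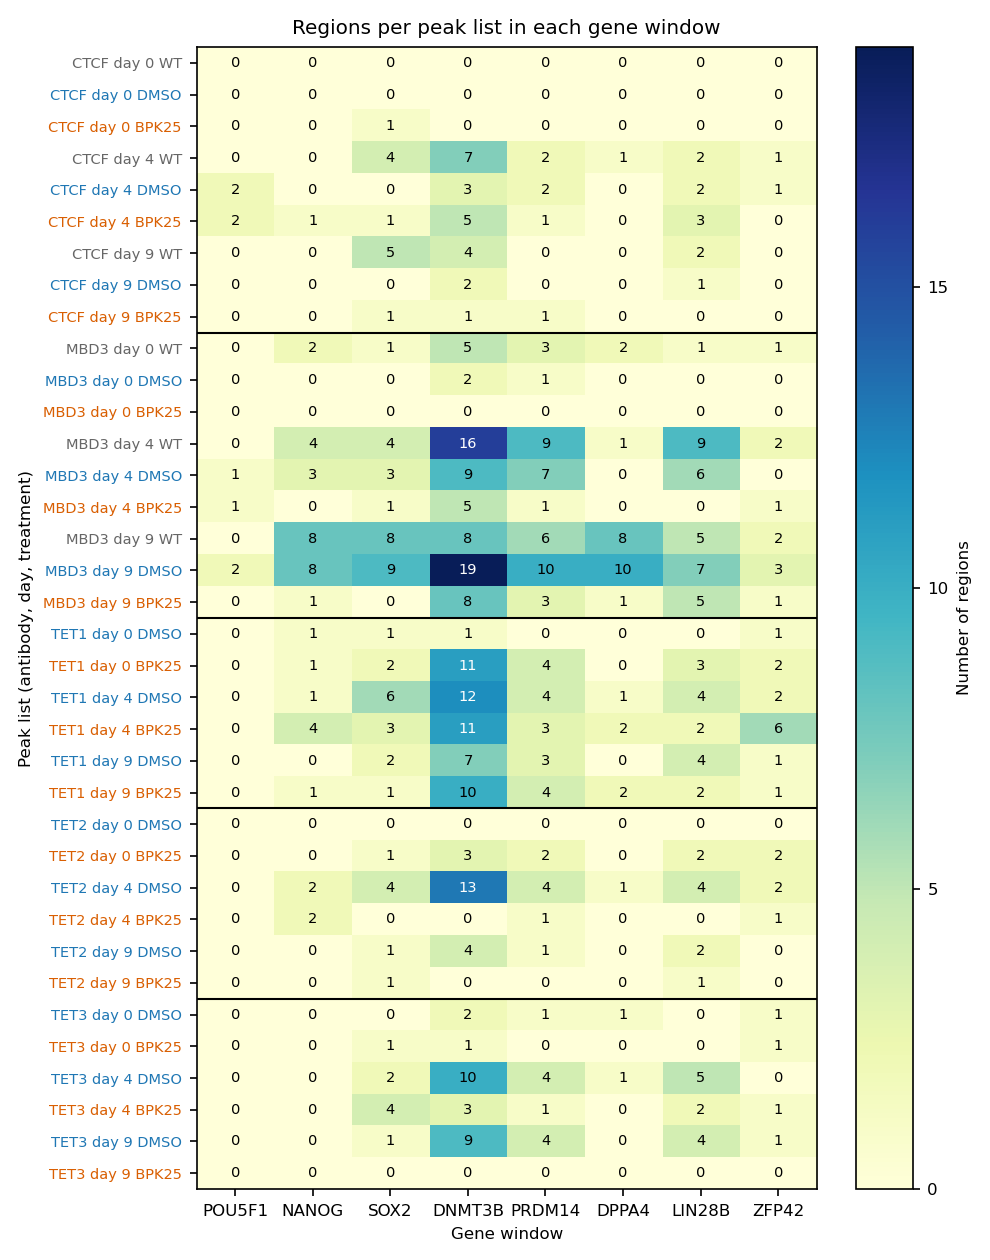
Number of regions (colour and figures) of each of the 36 peak lists (rows, named by antibody, day and treatment, WT grey, DMSO blue, BPK25 orange) in each of the 8 gene windows (columns). The DNMT3B column holds the highest counts, up to 19 in the day 9 DMSO MBD3 list, and the POU5F1 column holds 8 regions in all.

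Most regions were seen once. Of the 270 merged regions 180 (66.7%) had a peak in 1 list only, against 60% of all merged regions of the series, and 30 (11.1%) had a peak in at least 4 lists, against 16.6%. Of the 180 single-list regions, 51 came from the day 9 DMSO list of MBD3 and 37 from the day 9 WT list of MBD3, and 32 from the 3 BPK25 lists of TET1. The region found in most lists had peaks in 14, and none of the 270 reached 18. The 30 recurrent regions were spread unevenly, with 15 in the DNMT3B window, 5 each in the PRDM14 and LIN28B windows, 3 at SOX2, 1 each at POU5F1 and ZFP42 and none at NANOG or DPPA4.

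Which proteins met at the recurrent regions was counted next. CTCF, MBD3 and at least 1 TET protein were all found, in some list, at 13 of the 30 (43.3%), against 34.2% of the 58217 regions of the series with peaks in at least 4 lists. MBD3 with a TET protein but without CTCF accounted for 9 (30.0%, against 38.6%), and CTCF with MBD3 but without a TET protein for 4 (13.3%, against 9.15%). TET proteins alone made up 3 (10.0%, against 14.4%), and CTCF with a TET protein but no MBD3 made up 1, against 3.04% of regions. These shares lay within 10 percentage points of those of the series.

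**Figure D2:**
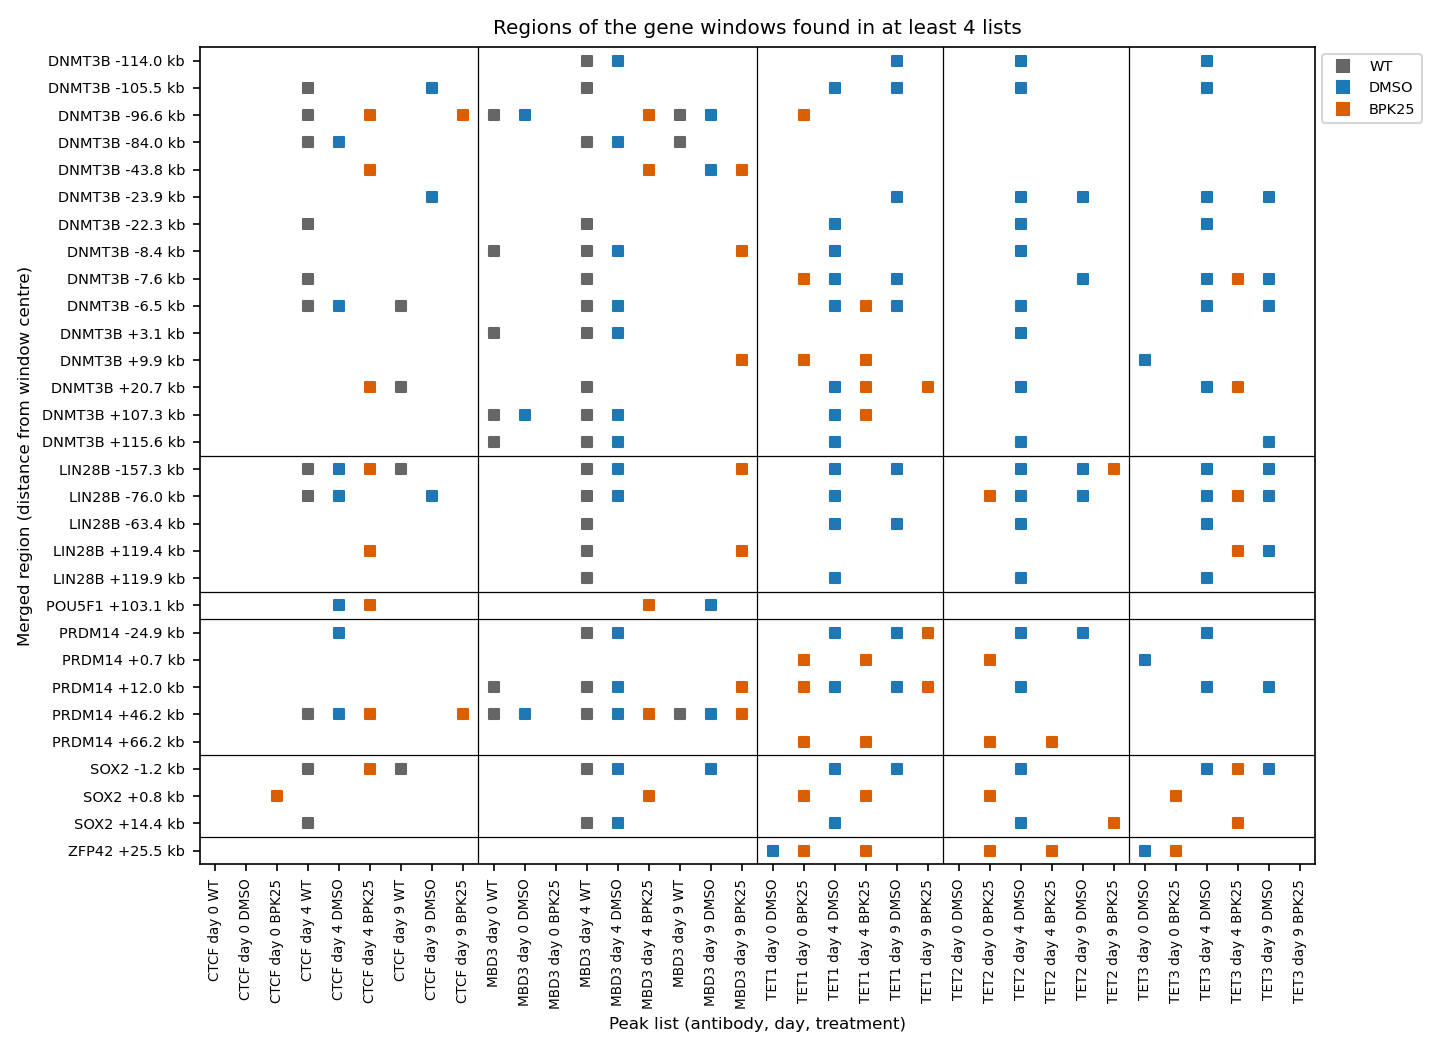
The 30 merged regions with peaks in at least 4 lists (rows, named by gene window and distance of the region's centre from the window centre in kb) against the 36 lists (columns); a square marks a list with a region there, coloured by treatment. The SOX2 region at +0.8 kb and the PRDM14 region at +66.2 kb have orange squares only, and the PRDM14 region at +46.2 kb is filled in 4 of the 9 CTCF lists and 8 of the 9 MBD3 lists and empty across TET1, TET2 and TET3.

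POU5F1 encodes OCT4, the homeodomain factor without which the pluripotent state is lost. No list had a region in the first 208 kb of its 210 kb window. All 3 merged regions lay in the last 1.95 kb, about 103 to 104 kb from the centre. This is the side of HLA-C, the next gene in the RefSeq order. The first, at chr6:31238047-31238223, was found in 4 lists, CTCF on day 4 in DMSO and BPK25, and MBD3 on day 4 in BPK25 and on day 9 in DMSO. Its −log10 q was 24.8, 48.3, 36.7 and 14.5 in these lists, with a fold enrichment over local background of 5.12, 7.01, 4.83 and 7.15. The second, at chr6:31238880-31239087, was found in the day 4 CTCF lists of DMSO and BPK25 and in the day 4 DMSO list of MBD3, with −log10 q of 9.75, 16.9 and 4.77. The last, at chr6:31239373-31239543, was found in the day 9 DMSO list of MBD3 only, with a −log10 q of 65.9 and a fold enrichment of 28.1, the highest −log10 q of any region in the 8 windows. No TET list and no WT list had a region in the window.

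The window lies in a wider stretch with few regions. Between 30711800 and 31238000 on chromosome 6, 526 kb, no list had a region. Within 2 Mb on either side of the window's centre the 36 lists together held 238 regions, 59.5 per Mb, against 188 per Mb on the rest of the chromosome. The lists also held 1283 regions on 7 alternative contigs of chromosome 6, from 32 of the lists. The part of these contigs in the low count was not tested, and a stretch without a region is not shown to be free of the proteins.

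**Figure D3:**
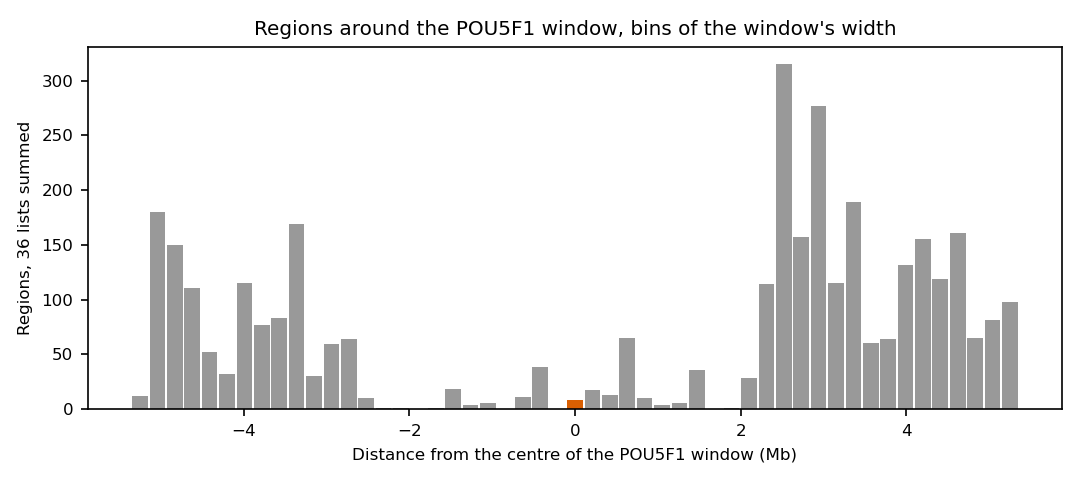
Regions of the 36 lists summed (vertical axis) in bins as wide as the POU5F1 window, by distance of the bin from the window centre in Mb; the window itself is the orange bar with 8 regions. Bins within 2 Mb hold at most 65 regions, and bins farther out reach 315.

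SOX2 encodes the HMG-box partner of POU5F1, which stays active in neural progenitors. Its window had the most regions close to its centre in relation to its total, with 17 of 33 merged regions within 25 kb. The region found in most lists there was chr3:181428263-181429313, at -1.21 kb from the centre, present in 12 lists. It was found in 7 DMSO lists (MBD3 on days 4 and 9, TET1 on days 4 and 9, TET2 on day 4, TET3 on days 4 and 9), in 3 WT lists (CTCF on days 4 and 9, MBD3 on day 4) and in 2 BPK25 lists (CTCF and TET3 on day 4). Its −log10 q lay between 1.46 and 5.72. None of the day 0 lists had a peak at this region.

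A neighbouring region just beyond the centre had another pattern. It lies at chr3:181430605-181430913, at 0.759 kb from the centre, and was found in 6 lists, all of them BPK25 lists. These were the day 0 lists of CTCF, TET1, TET2 and TET3, with −log10 q of 1.44, 5.85, 3.53 and 2.76, and the day 4 lists of MBD3 and TET1, with 7.12 and 6.16. No DMSO or WT list had a peak there. Of the 90 merged regions of the windows with peaks in at least 2 lists, this was the one with the most BPK25 lists among those found in BPK25 lists alone. The other region named by its number of lists, chr3:181444232-181444627, at 14.4 kb from the centre, was found in 7 lists, with its highest −log10 q, 14.1, in the day 4 WT list of MBD3, and with 8.05 in the day 4 DMSO list. The BPK25 lists there were TET2 on day 9 and TET3 on day 4, with −log10 q of 1.60 and 2.07.

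NANOG encodes the homeobox factor that sustains self-renewal. Its window held 30 merged regions, of which 23 were found in 1 list and none in more than 3. MBD3 gave 26 of the 39 list regions, 16 of them on day 9 in WT and DMSO, 8 in each list. The region of highest −log10 q, chr12:8012582-8012813, was an MBD3 region 67.7 kb from the centre with 25.2 in WT on day 0, 16.8 in WT on day 4 and 4.80 in DMSO on day 4. A second MBD3 region, chr12:7959543-7959815, 14.7 kb from the centre, was found in the same 3 lists with −log10 q of 11.4, 5.95 and 9.66. Neither was found in a BPK25 list, in a day 9 list or with another antibody. Another, chr12:8015043-8015220, was found in the day 4 BPK25 lists of TET1 and TET2 only, with 8.50 and 4.39. The last was 1 of 5 regions found in 2 lists; of the other 4, none was found in BPK25 lists only. None of the 15 DMSO regions of the window overlapped a BPK25 region of the same antibody and day, beside 83.4% without one in the DMSO lists as a whole and 89.6% in those of MBD3. Its 11 CTCF and MBD3 regions in DMSO were all of MBD3, and 9 of them overlapped no WT region, against 63.9% of the DMSO lists of MBD3. Of the 11, 8 were of day 9, where 81.0% of the DMSO list overlapped no WT region.

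PRDM14 encodes a PR-domain zinc finger factor that supports the pluripotent state and restrains DNA methylation. The leading region of its window, chr8:71016045-71016432, 46.2 kb from the centre, was found in 12 lists, all of CTCF or MBD3. CTCF was found there on day 4 in WT, DMSO and BPK25, with −log10 q of 21.1, 28.2 and 58.9, and on day 9 in BPK25, with 13.4. MBD3 was found there in 8 of its 9 lists, all but that of BPK25 on day 0, with −log10 q from 3.93 to 43.8. Fold enrichment for MBD3 ran from 1.89 in WT on day 0 to 11.6 in DMSO on day 9, against list medians of 5.08 and 4.44. In WT on day 4 it was 2.02, against 4.30. For CTCF it ran from 2.99 in BPK25 on day 9 to 6.13 in BPK25 on day 4, against 3.31 and 4.28. A high −log10 q thus went with a low fold enrichment in some of these lists. The summits of CTCF and MBD3 in the 12 lists lay within 46.1 to 46.3 kb of the centre. None of the 18 TET lists had a region there. The next region by number of lists, chr8:70981663-70982292, 12.0 kb from the centre, also had MBD3, in 4 lists, but with 7 TET lists and no CTCF list. Its −log10 q ran from 1.37 to 5.54. It was found in 3 BPK25 lists, MBD3 on day 9 and TET1 on days 0 and 9. At chr8:70944821-70945466, at -24.9 kb from the centre, 9 lists had a region, 7 of them DMSO lists of day 4 or 9 that between them covered all 5 antibodies. The highest −log10 q there, 4.50, was that of CTCF on day 4 in DMSO. At chr8:71036104-71036303, 66.2 kb from the centre, the 4 lists were the BPK25 lists of TET1 and TET2 on days 0 and 4, a region picked out after its values were seen.

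ZFP42 encodes REX1, a zinc finger protein long used as a marker of undifferentiated cells. Of the 24 merged regions of its window, 19 were found in 1 list, and 1 was found in more than 3. That region, chr4:188950202-188950770, 25.5 kb from the centre, was found in 7 lists, all of TET proteins and all of day 0 or day 4. DMSO lists gave TET1 and TET3 on day 0, with −log10 q of 1.43 and 17.7. BPK25 lists gave TET1, TET2 and TET3 on day 0, with 9.64, 10.3 and 3.31, and TET1 and TET2 on day 4, with 3.30 and 4.59. No TET list of day 9 had a peak there, and no CTCF or MBD3 list of any day. The other regions named by the rule were chr4:188892116-188892273, in the day 4 CTCF lists of WT and DMSO (2.49 and 7.06), and chr4:188937922-188938217, in the day 4 WT list of MBD3 and the day 4 DMSO list of TET1 (2.69 and 4.30).

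DPPA4 is a nuclear protein that marks pluripotent cells and binds chromatin together with DPPA2, its neighbour in the genome. Its window had 24 merged regions, 20 of them in 1 list, which is 83.3% and the highest such share of the 8 windows. MBD3 gave 22 of the 31 list regions, 10 of them in DMSO on day 9 and 8 in WT on day 9, against 1 in BPK25 on day 9. The region of highest −log10 q, chr3:109115375-109115564, 65.5 kb from the centre, was found in the day 0 WT list of MBD3 only, with 17.2 and a fold enrichment of 8.39. Nearest to the centre among the named regions was chr3:109053169-109053377, at 3.27 kb, found in MBD3 on day 9 and in TET1 and TET3 on day 4, all in DMSO, with −log10 q of 1.94, 2.77 and 3.60. None of the 14 DMSO regions of the window overlapped a BPK25 region of the same antibody and day, beside 83.4% without one among all DMSO regions and 89.6% among those of MBD3.

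DNMT3B encodes the enzyme that methylates DNA de novo in early embryonic cells. The lists with most regions in its window were MBD3 on day 9 in DMSO with 19, MBD3 on day 4 in WT with 16, TET2 on day 4 in DMSO with 13 and TET1 on day 4 in DMSO with 12. The 3 day 0 CTCF lists, the day 0 BPK25 list of MBD3, the day 0 DMSO list of TET2, the BPK25 lists of TET2 on days 4 and 9 and that of TET3 on day 9 had none. A cluster of 3 merged regions lay between -8.38 and -6.52 kb from the centre. The one found in most lists, chr20:31367713-31369249, had peaks of all 5 antibodies in 11 lists, 7 DMSO, 3 WT and 1 BPK25 (TET1 on day 4), all on days 4 and 9, with −log10 q of 1.58 to 7.71. The adjoining chr20:31367261-31367597 was found in 9 lists, of which TET1 on day 0 and TET3 on day 4 were BPK25 lists. At chr20:31278106-31278638, at -96.6 kb from the centre, the 9 lists were of CTCF, MBD3 and, once, TET1, with all 3 days and all 3 treatments present, and the highest −log10 q was 26.1 in the day 4 BPK25 list of CTCF. In 7 of the 8 CTCF and MBD3 lists the summit fell at nearly the same base, between -96.582 and -96.575 kb from the centre. Fold enrichment there ran from 1.64 in the day 4 WT list of CTCF to 4.67 in its day 4 BPK25 list, against list medians of 4.00 and 4.28. A further region found in 9 lists, left out by the rule for ties and added after its values were seen, was chr20:31395508-31395929, 20.7 kb from the centre. It had peaks of all 5 antibodies on days 4 and 9, in 4 BPK25, 3 DMSO and 2 WT lists, with −log10 q of 1.36 to 7.19.

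Regions found in BPK25 lists alone were also present at DNMT3B. At chr20:31463513-31464081, 88.8 kb from the centre, TET1 was found in BPK25 on days 0, 4 and 9, with −log10 q of 8.70, 1.55 and 3.06, and in no other list. This region was picked out after its values were seen, as was chr3:181437349-181437638 in the SOX2 window, where TET1 was likewise found in BPK25 on all 3 days, with −log10 q of 1.75, 4.49 and 2.94, and in no other list.

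LIN28B encodes an RNA-binding protein that blocks maturation of the let-7 microRNAs and is active in embryonic and early neural cells. Its window is the widest and had 4 of its 38 merged regions within 25 kb of the centre. It held the region found in most lists of all 8 windows, on the side of HACE1, the gene before LIN28B in the RefSeq order. At chr6:105307359-105307966, at -157 kb from the centre, 14 lists had a region, all on days 4 and 9: 4 CTCF lists, 3 MBD3 lists, 2 TET1 lists, 3 TET2 lists and 2 TET3 lists, of which 3 were BPK25 lists (CTCF on day 4, MBD3 and TET2 on day 9). Its −log10 q lay between 1.32 and 8.42, the highest in the day 4 DMSO list of TET3. At chr6:105388636-105389265, at -76.0 kb from the centre, 12 lists had a region, all DMSO or WT lists but for TET2 on day 0 (−log10 q of 10.1) and TET3 on day 4 (2.88) in BPK25. The remaining named region, chr6:105584158-105584553, at 119 kb from the centre, was found in 5 lists, 3 of them BPK25 lists, with −log10 q of 1.48 to 5.95. Another region of 5 lists, chr6:105401346-105401790, at -63.4 kb from the centre, was passed over by the rule for ties and is given after its values were seen. It was found in 4 DMSO lists and 1 WT list and in no BPK25 list, with −log10 q of 1.75 to 5.06.

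**Figure D4:**
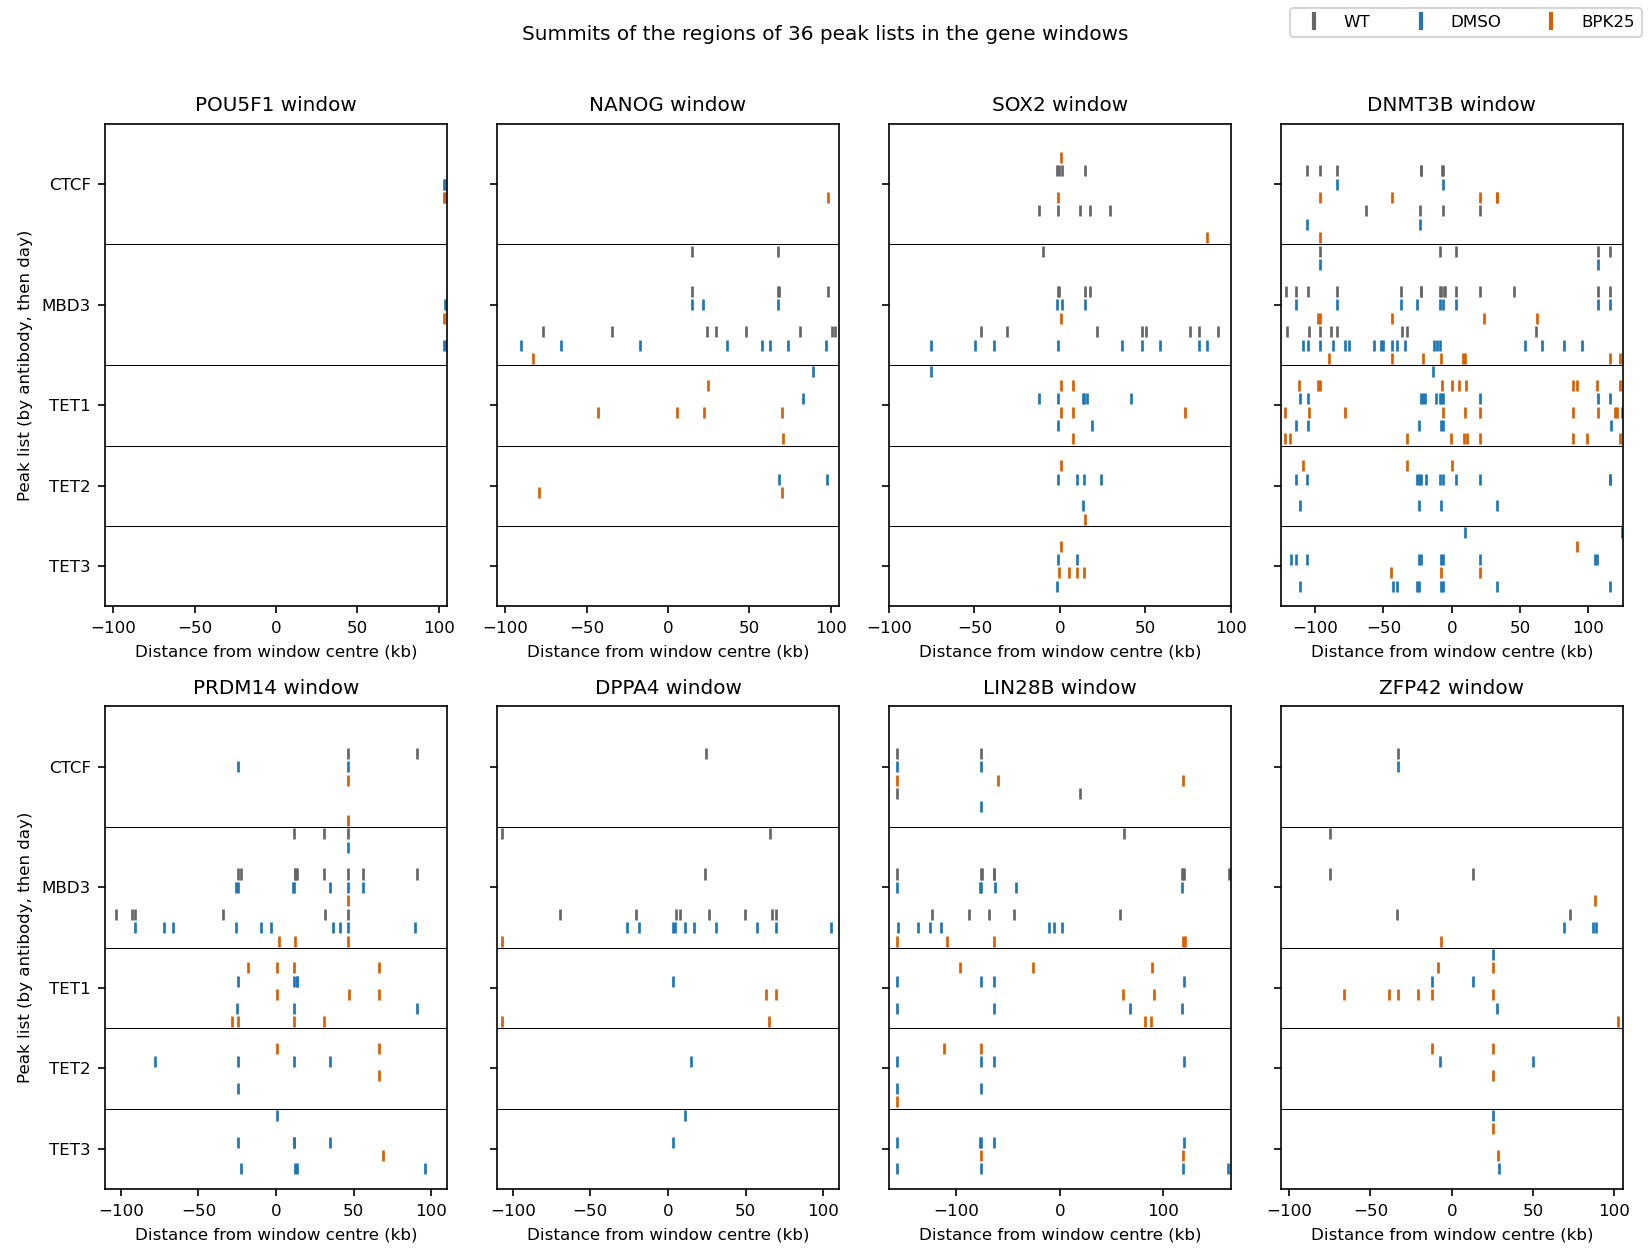
Summits of the regions of the 36 lists (vertical axis, ordered by antibody and then day, WT, DMSO and BPK25 in turn, coloured by treatment) by distance from the centre of each window in kb. Ticks stack at single positions in the PRDM14, LIN28B and DNMT3B windows, are scattered for MBD3 on day 9 in the NANOG, SOX2 and DPPA4 windows, and are confined to the right edge in the POU5F1 window.

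The share of a list that lay in the 8 windows was then compared between treatments and days. By length alone the windows are 0.0598% of the chromosomes, or 5.98 per 10000, and 17 of the 36 lists lay above that value. The MBD3 lists of day 9 in WT and DMSO had the highest shares of all 36 lists, with 15.3 per 10000 in WT (45 of 29341 regions, 95% Wilson interval 11.5 to 20.5, counting error only) and 15.4 in DMSO (68 of 44052, 12.2 to 19.6). The BPK25 list of that day, of 44297 regions, gave 4.29 (19 regions, 2.75 to 6.70). The DMSO list had a region in 8 of 8 windows, the WT list in 7 and the BPK25 list in 6, against 70%, 62.7% and 65.8% of genome tiles of 231250 bp, the mean width of the windows. The regions of the windows in the DMSO list had a median fold enrichment of 4.48, against 4.44 for the whole list, and a median −log10 q of 2.89, which was also that of the list.

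For MBD3 on the other days the per 10000 values of WT, DMSO and BPK25 were 12.4, 3.99 and 0 on day 0 (15, 3 and 0 regions) and 8.80, 6.29 and 5.82 on day 4 (45, 29 and 9 regions). The day 0 BPK25 list held 590 regions, so that a count of 0 there allowed up to 50.8 per 10000 (3 counts of the total). For CTCF the values were 0, 0 and 7.72 on day 0 (0, 0 and 1 regions, where the zeros allowed up to 30.7 in WT and 16.3 in DMSO), 9.33, 4.84 and 8.97 on day 4 (17, 10 and 13 regions) and 12.9, 3.54 and 7.91 on day 9 (11, 3 and 3 regions). The DMSO value of CTCF was the lowest of the 3 on days 4 and 9, with intervals that overlapped those of the other treatments.

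The TET lists, for which no WT cells were profiled, differed as follows. TET1 had 4.66 per 10000 in DMSO and 3.19 in BPK25 on day 0 (4 and 23 regions), 6.66 and 3.68 on day 4 (30 and 31) and 6.92 and 4.81 on day 9 (17 and 21), so that the BPK25 lists held more regions in the windows but a smaller share of the list on each day. TET2 had 0 and 3.17 on day 0 (0 and 10 regions, where 0 allowed up to 8.61), 8.19 and 3.00 on day 4 (30 and 4) and 5.25 and 10.4 on day 9 (8 and 2, the latter of a list of 1928 regions). TET3 had 1.35 and 1.97 on day 0 (5 and 3 regions), 6.64 and 8.62 on day 4 (22 and 11) and 7.44 and 0 on day 9 (19 and 0, the latter of a list of 321 regions, where 0 allowed up to 93.5). The day 0 DMSO list of TET3, with 37154 regions, had the lowest share of the lists with any region in the windows, with an interval of 0.575 to 3.15.

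**Figure D5:**
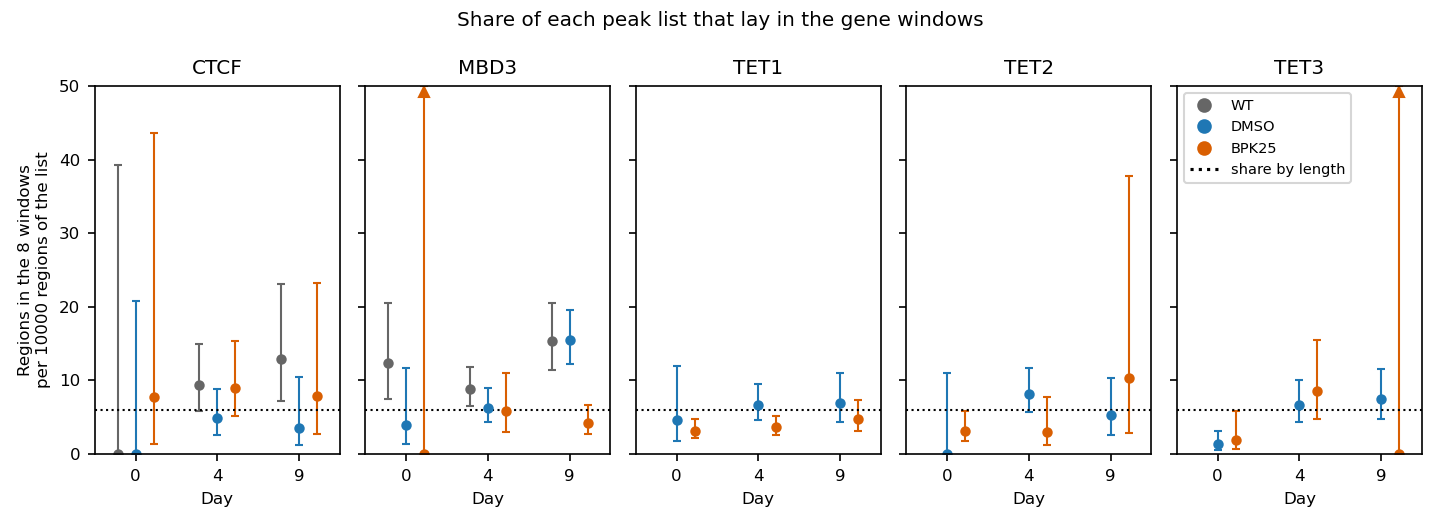
Regions in the 8 windows per 10000 regions of the list (vertical axis) by day for each antibody, WT grey, DMSO blue, BPK25 orange; bars are 95% Wilson intervals, triangles mark intervals that run beyond the axis, and the dotted line is the share by length, 5.98. The day 9 WT and DMSO points of MBD3, at 15.3 and 15.4, have intervals wholly above the line. The DMSO points of day 0 lie below the line for all 5 antibodies, but of their intervals only that of TET3 does so wholly.

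Over the 15 pairs of lists of 1 antibody and day no difference between BPK25 and DMSO passed the test, and antibodies went both ways. The mean was 4.90 per 10000 in BPK25 and 5.41 in DMSO, a difference of -0.513 ± 5.14 (SD, 15 pairs), with 8 pairs below 0 and 7 above it (p = 0.706 in an exact two-sided test that flips the signs of the pairs, and 0.706 after Benjamini-Hochberg adjustment over the 4 tests of this kind). The CTCF lists had a mean difference of 5.40 ± 2.01 (SD, 3 days) and the MBD3 lists one of -5.20 ± 5.44. The mean was -2.19 ± 0.756 in the TET1 lists, 1.04 ± 5.48 in those of TET2 and -1.61 ± 5.09 in those of TET3. The antibodies were not tested against each other. The CTCF differences rested on 1, 13 and 3 regions in BPK25 and 0, 10 and 3 in DMSO on days 0, 4 and 9. On day 9 the counts were equal and the lists differed in length (3795 and 8469 regions). The SD over 3 days is not a measure of the counting error of so few regions. The sign of the mean over the 15 pairs rested on 1 pair, since it was 0.247 without MBD3 on day 9. The test took the pairs as independent, although the antibodies of a day and treatment may have had an input in common. The same limit holds for the tests of WT and of days below.

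WT and DMSO cells, both without the compound, were compared next for CTCF and MBD3. WT lists had 9.80 per 10000 and DMSO lists 5.68, a difference of 4.11 ± 4.08 (SD, 6 pairs). It was higher in 4 pairs, lower in 1 and equal in 1 (exact p = 0.125 by sign flips, 0.167 after adjustment). The equal pair was CTCF on day 0, with no region in either list. Flipping the sign of that pair changes nothing, so p rested on the other 5 pairs. The smallest p that 5 pairs allow is 0.0625, so this test could not pass the threshold of 0.05.

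The share was higher on days 4 and 9 than on day 0 in the DMSO lists of all 5 antibodies, in a design too small to reach the threshold. The day 0 values rested on few regions. CTCF and TET2 had 0, which allowed up to 16.3 and 8.61 per 10000, above their own values of days 4 and 9. MBD3, TET1 and TET3 had 3, 4 and 5 regions. It was 2.00 per 10000 on day 0, 6.52 on day 4 and 7.72 on day 9. The difference was 4.52 ± 2.52 (SD, 5 pairs) for day 4 and 5.72 ± 3.53 for day 9, each higher in 5 of 5 pairs, and the exact p of 0.0625 (adjusted 0.125) is the smallest that 5 pairs allow, so neither could pass 0.05. Both differences use the same day 0 lists and are not independent. With the lists of a pair at equal length the day 4 difference was 2.23 (exact p = 0.5). The WT lists were not part of these tests. In WT, MBD3 had 12.4 per 10000 on day 0, 8.80 on day 4 and 15.3 on day 9, so that day 4 lay below day 0. CTCF had 0, 9.33 and 12.9 in WT, where the 0 allowed up to 30.7.

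Regions of at least 2 lists were placed by day in the same way. Of the 90 such regions in the windows 58 (64.4%) were found on day 4 or 9 but in no day 0 list, against 46.5% of the 140130 such regions of the series. Those found on days 4 and 9 numbered 34 (37.8%, against 27.2%) and those of day 4 only 17 (18.9%, against 14.6%). Those found on all 3 days numbered 10 (11.1%, against 21.3%) and those of day 0 only 2 (2.22%, against 4.86%). By treatment 41 of the 90 (45.6%) were found in WT or DMSO lists only, against 22.9% of the series, 38 (42.2%) in those and in BPK25 lists, against 57.5%, and 11 (12.2%) in BPK25 lists only, against 19.6%. Of the 90 regions, 30 had peaks in at least 4 lists, against 58217 of the 140130 of the series. A region of few lists can be placed on fewer days and treatments, and the shares were not matched for the number of lists. No test was made on these shares, whose regions share lists.

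Few DMSO regions were found again under BPK25, in the windows as in the whole lists. Of 248 DMSO regions, summed over antibodies and days, 229 (92.3%) overlapped no BPK25 region of the same antibody and day, against 83.4% of the DMSO lists as a whole. For MBD3 it was 97 of 100 (97.0%, against 89.6%), for TET1 45 of 51 (88.2%, against 71.4%), for TET2 37 of 38 (97.4%, against 92.1%), for TET3 41 of 46 (89.1%, against 86.3%) and for CTCF 9 of 13 (69.2%, against 69.9%). Antibodies had unlike weight in the sum, since MBD3 gave 100 of the 248 regions in the windows but 97695 of the 358036 in the lists. Of the 19 shared regions 6 lay at DNMT3B, 5 at PRDM14, 3 at LIN28B, 2 each at POU5F1 and ZFP42 and 1 at SOX2. Among DMSO peaks with a −log10 q of at least 5 the share without a BPK25 region was 75.6% (31 of 41), against 66.4% of such peaks in the whole lists.

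The same comparison was made with WT for CTCF and MBD3. Of 113 DMSO regions 80 (70.8%) overlapped no WT region, against 64.8% of the DMSO lists. For MBD3 it was 73 of 100 (73.0%, against 63.9%) and for CTCF 7 of 13 (53.8%, against 67.7%). The days had unlike weight in these sums, since day 9 gave 68 of the 100 MBD3 regions but 44052 of the 97695 in the lists. The MBD3 share was below that of the list on day 0 (0 of 3, against 44.6%) and day 4 (11 of 29, 37.9%, against 50.8%). It was above it on day 9 only (62 of 68, 91.2%, against 81.0%). The WT and BPK25 comparisons share the DMSO lists. In the other direction 131 of 150 BPK25 regions (87.3%) overlapped no DMSO region, against 83.3% of the BPK25 lists, and 100 of 133 WT regions (75.2%) overlapped no DMSO region, against 62.1%.

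Overlap between antibodies was counted within each day and treatment. Taking each antibody against each other one in turn, the share of the window regions with an overlap was above that of the whole list in 14 of 20 comparisons on day 4 in DMSO, but in 6 of 20 on day 4 in BPK25, in 5 of 20 on day 9 in DMSO, in 1 of 12 on day 0 in DMSO, in 11 of 16 on day 0 in BPK25 and in 3 of 16 on day 9 in BPK25. These comparisons rest on few regions and share lists, and they were not tested. In DMSO cells of day 4, 7 of 10 CTCF regions of the windows overlapped an MBD3 region (70.0%, against 52.8% of the list), and 12 of 29 MBD3 regions overlapped a TET2 region (41.4%, against 32.5%). TET3 regions overlapped TET2 regions at 15 of 22 (68.2%, against 45.2%) and TET1 regions at 12 of 22 (54.5%, against 47.6%), but MBD3 regions at 9 of 22 (40.9%, against 45.2%). In BPK25 cells of day 4, 4 of 13 CTCF regions overlapped an MBD3 region (30.8%, against 36.5%). Of the 68 MBD3 regions of day 9 in DMSO 0 overlapped a CTCF or TET2 region and 1 each a TET1 and a TET3 region, against 4.91%, 4.25%, 5.73% and 6.43% of the list. In WT cells 11 of 45 MBD3 regions of day 4 overlapped a CTCF region (24.4%, against 18.5%), and 0 of 45 did on day 9, against 3.24%.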

How the data were processed

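ChIP-seq peak lists of 108 immunoprecipitated samples, 36 groups of 3 pooled replicates, were analysed; 27 inputs have no list of their own, and the control of each list is not given in the sources used here. Per the submitters' processing notes the build is hg19 and the tools, with no role stated, are MACS2 2.1.2, Bowtie2 2.3.4, bedtools 2.25.0, FastQC 0.11.7 and SAMtools 1.9. Peaks carry, as the authors deposited them, a linear ratio (fold enrichment over local background), the −log10 of a q-value and the summit's offset. They were used here to describe or filter peaks within a list, and the −log10 q also to name regions over the lists. The highest q-value in the lists was 0.05, and depth is not stated.

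The 905026 deposited rows were reduced to 1 region per interval, keeping the summit of highest −log10 q. Regions overlapping by at least 1 bp were merged or counted as shared. Windows, genes and lists were chosen with earlier results of these data known. Named regions were, per window, the 3 merged regions with peaks in most lists (ties by highest −log10 q, which left out 1 region at DNMT3B, 1 at LIN28B, 4 at NANOG and 2 at ZFP42) and that of highest −log10 q; others are said to have been picked after their values were seen. Shares per 10000 regions carry 95% Wilson intervals, and pairs were tested with exact two-sided sign-flip tests. The software was scipy 1.17.1, pandas 2.3.3, numpy 2.4.6 and matplotlib 3.10.9 under Python 3.11.15, and overlaps were tested on simulated data. Annotation of hg19 was not used, so start sites were not placed and the further pluripotency genes of the plan were not analysed.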

Additional observations from a re-analysis of the deposited data

How the results depend on the processing

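The mean difference between BPK25 and DMSO in the share of a list that lay in the windows, -0.513 per 10000, turned positive with the lists of a pair at equal length (0.559), and, in settings added after the data were seen, without the DNMT3B window (0.319) and with pairs of at least 1000 regions in both lists (0.288, 13 pairs). In the other 8 settings it lay between -1.92 and -0.303, and leaving out each antibody and day in turn gave -1.10 to 0.247 (exact p from 0.411 to 0.990). No setting brought it past the threshold. The WT minus DMSO difference stayed positive in all 10 settings tried (3.15 to 6.54, the highest with peaks of at least 4-fold enrichment) and between 3.06 and 4.96 with each pair left out (exact p from 0.125 to 0.25). The day 4 and day 9 differences kept their sign in all 8 settings each, from 2.23 to 5.84 and from 3.72 to 7.32. The share of DMSO regions with no BPK25 region was 92.3% for all peaks and 75.6% among DMSO peaks of −log10 q of at least 5. That with no WT region was 70.8% and 38.1% (8 of 21), against 37.9% of such peaks in the whole lists. The other settings left both window shares close to the reported ones, but the shares of the whole lists moved. With a reciprocal overlap of at least 50% the windows had 93.1% (BPK25) and 74.3% (WT), against 89.0% and 72.7% of the lists. For all peaks the lists had 83.4% and 64.8%. With regions within 500 bp counted as shared, the windows had 90.3% and 64.6%, against 79.6% and 59.8%. The cause was not tested. By replicate number, no paired analysis was possible because the lists pool replicates 1 to 3 of each group; the pairs tested are of whole lists, matched by antibody and day or by antibody.

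Depth is not stated, so the lengths of the lists, from 321 to 84203 regions, limit what a missing region can show: in the shortest lists a count of 0 allowed up to 93.5 per 10000. Whether the antibodies of a day and treatment had an input in common is not stated. Peaks were placed by distance from window centres and not by gene features.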
